A study of Homo sapiens with 24 samples.

Results

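The 10 genes described here encode transcription factors and a coactivator that direct B-cell development: PAX5, EBF1, TCF3, IKZF1, IKZF3, FOXO1, BACH2, LEF1, SOX4 and POU2AF1. They were chosen by name, and every RefSeq accession that the count table holds for them was taken, which gave 69 of 64519 accessions. Of these 69 accessions, 10 had at least 1 count in any of the 24 libraries, and 7 transcripts of 6 genes had more than 1 count per 1000000 counts of the library (CPM) in at least 2 libraries and were tested. The libraries came from Nalm6, an established human B-cell precursor acute lymphoblastic leukemia line, transduced with lentivirus and selected as populations with puromycin. The cells expressed shRNA against a nonspecific sequence (shNS, the control), against the lysine methyltransferase G9a (shG9a), against the related enzyme GLP (shGLP) or against heterochromatin protein HP1γ (shHP1γ). Each population was treated for 8 h with 100 nM dexamethasone (dex, a synthetic glucocorticoid) or with the ethanol vehicle, in 3 biological replicates made on different days, so every library carries a shRNA vector. The study asked which dex-regulated genes need G9a, GLP and HP1γ, and 1 shRNA vector was used for each target.

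EBF1 and TCF3 (E2A) open the B-lineage program, and PAX5 holds cells to it while repressing genes of other lineages. IKZF1 (Ikaros) and IKZF3 (Aiolos) are zinc finger factors that drive pre-B cells out of cycling and toward maturation, and BACH2 is a repressor that guards the pre-B-cell stage. FOXO1 switches on the recombination genes when PI3 kinase signaling is low, LEF1 carries Wnt signals in early precursors, SOX4 supports survival and growth of pro-B cells and leukemias, and POU2AF1 (OBF-1, OCA-B) is a coactivator that joins octamer-binding factors on B-cell promoters.

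Promoter sequences are shown for 3 of the tested genes whose transcripts behaved differently after dex: SOX4, which had lower levels in every pair of libraries, LEF1, of which 1 transcript had a lower level in the control cells, and FOXO1, which was not called after dex in any of the 4 cell populations. They are RefSeq sequences of build GRCh38.p14, 250 bases before to 50 bases after the annotated start, 5′ to 3′ on the strand of the gene. POU2AF1, which was called lower after dex in all 4 populations, had no promoter window in the sequences used here and is not shown. Capitals mark E-boxes (CANNTG, the site type of TCF3) and the Ikaros core (TGGGAA, the site type of IKZF1), searched on both strands. SOX4 lies at chr6:21593501-21593800 on the plus strand, LEF1 at chr4:108166252-108166551 on the minus strand and FOXO1 at chr13:40666592-40666891 on the minus strand.
SOX4: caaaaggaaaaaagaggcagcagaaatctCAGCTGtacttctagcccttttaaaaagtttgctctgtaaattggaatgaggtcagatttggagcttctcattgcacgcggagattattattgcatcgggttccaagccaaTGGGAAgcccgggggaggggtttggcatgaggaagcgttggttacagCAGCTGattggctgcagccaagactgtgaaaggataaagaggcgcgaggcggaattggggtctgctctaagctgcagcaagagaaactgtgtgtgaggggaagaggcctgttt
LEF1: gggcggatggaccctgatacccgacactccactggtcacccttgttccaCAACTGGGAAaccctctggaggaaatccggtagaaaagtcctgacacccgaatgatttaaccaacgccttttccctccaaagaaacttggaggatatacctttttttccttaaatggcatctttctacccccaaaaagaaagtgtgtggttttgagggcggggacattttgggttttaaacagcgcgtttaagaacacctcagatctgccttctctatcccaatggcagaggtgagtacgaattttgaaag
FOXO1: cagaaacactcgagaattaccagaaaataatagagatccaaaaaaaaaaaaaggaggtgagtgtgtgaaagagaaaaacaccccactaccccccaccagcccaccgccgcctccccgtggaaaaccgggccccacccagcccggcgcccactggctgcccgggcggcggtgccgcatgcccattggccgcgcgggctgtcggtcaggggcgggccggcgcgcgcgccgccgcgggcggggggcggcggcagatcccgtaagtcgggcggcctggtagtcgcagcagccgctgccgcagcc
The SOX4 window held 2 E-boxes, at -221 and -63, and 1 Ikaros core at -110, where positions are those of a match's first base and the base before the start is -1. In the LEF1 window an E-box at -201 overlapped an Ikaros core at -197, and a glucocorticoid half-site (AGAACA) lay at -10. The FOXO1 window held no match to these motifs, nor to the octamer (ATTTGCAT), the EBF1 site (TCCC and GGGA with 2 bases between them) or the FOXO core (TGTTTAC). Such matches are common: of 35116 promoter windows of the same length, 68.7% held an E-box, 24.03% an Ikaros core and 14.8% the half-site, whereas 1.77% held the octamer, 1.21% the EBF1 site and 3.42% the FOXO core. The full palindromic glucocorticoid response element (AGAACA and TGTTCT with 3 bases between them) was in none of the windows printed here and in 1 of all 35116 windows.

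Library totals ran from 9289533 to 14387770 counts with a median of 11132064.5. A count of 3 in a library, the upper limit that a count of 0 allows, corresponded to 0.209 to 0.323 CPM. The libraries with the largest differences from the other replicates of their group were both shHP1γ libraries of replicate 1 and the shG9a dex library of replicate 2. Comparisons that include them had a chi-squared statistic per degree of freedom of 18.7 to 39.1, against a median of 8.68 over all 24 pairs within groups, so results that rest on them are also given without them. Of 7 B-cell precursor markers, 5 had counts: IGLL1 had 352 or more and MME 189 or more counts in every library, CD79A had 19 or more, VPREB1 had 0 to 5, and CD79B and DNTT were at 0. The hormone response was present, since TSC22D3 (GILZ, a textbook glucocorticoid target) rose from 8.06 ± 0.90 CPM in ethanol to 89.0 ± 8.95 CPM in dex in shNS cells (SD, n = 3). The transcript of GLP (EHMT1) averaged 4.08 CPM in shNS and 2.62 CPM in shGLP cells in ethanol, and 1 transcript of HP1γ (CBX3, NM_016587) 4.02 CPM in shNS and 2.86 CPM in shHP1γ cells. The other CBX3 transcript (NM_007276) averaged 3.37 CPM in shNS, 2.74 CPM in shHP1γ and 2.86 CPM in shGLP cells in ethanol, and 3.09 CPM in shNS and 2.77 CPM in shHP1γ cells in dex, so it separated the knockdown little. The transcript of G9a was not analysed here. EHMT1 is listed under 6 accessions, of which 1 had counts, and CBX3 under 2. As described below for such genes, these levels therefore do not measure how far the targets were depleted. The study itself reported efficient depletion of G9a, GLP and HP1γ at the protein and mRNA level, by immunoblot and quantitative PCR.

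The members fell into 2 sets by the number of accessions listed for them. FOXO1 (chr13:41129804-41240778), SOX4 (chr6:21593982-21598850) and POU2AF1 (chr11:111222980-111326355, all GRCh37), each with 1 accession, had the most counts. FOXO1 had on average 4227 counts per library, SOX4 9094 and POU2AF1 2727. LEF1 (chr4:108968701-109090112), with 4 accessions, averaged 168.0 counts, and BACH2 (chr6:90636247-91006562), with 2 accessions, averaged 18.8. IKZF1 (chr7:50343664-50472799) is listed under 17 accessions, of which 2 had counts, and averaged 10.6 counts. PAX5 (chr9:36833266-37034265) had 13 accessions, and the only one with counts, the noncoding NR_104000, had 0 to 6 counts per library. EBF1 (chr5:158122928-158526924) had 10 accessions, and its NM_001324111 had 0 to 7 counts. TCF3 (chr19:1609290-1652614), with 4 accessions, and IKZF3 (chr17:37913971-38020565), with 16 accessions, were at 0 in every library.

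The low counts of PAX5, EBF1, TCF3, IKZF1 and IKZF3 moved with a property of the whole table. Among genes with 1 protein-coding accession, 23.4% of accessions were at 0 in all libraries, and the share was 55.9% for 2 accessions, 70.9% for 3 to 4, 80.6% for 5 to 9 and 91.8% for 10 or more. Counted by whole genes, the share at 0 rose less, and was 23.4%, 32.6%, 36.8%, 35.9% and 37.2% in the same order. The median total of a gene over all libraries was 120 counts with 1 accession and 8 to 13 counts with more. Genes that every cell uses, chosen after their values were seen, followed the same division. ACTB, with 1 accession, had 88109 to 139178 counts per library and PGK1, with 1, had 9109 to 16592, whereas GAPDH, with 4 accessions, had 24 to 63 counts, LDHA, with 6, had 3 to 13, and PKM, with 8, had 0 to 9. A count at or near 0 for a gene with several accessions therefore does not show that the gene was silent in these cells, and the levels of these 5 members cannot be read from the table. LEF1 and BACH2, listed under 4 and 2 accessions, share this limit, and their counts need not reflect the level of the gene. How reads shared by several accessions were counted is not given in the sources used here.

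**Figure D1:**
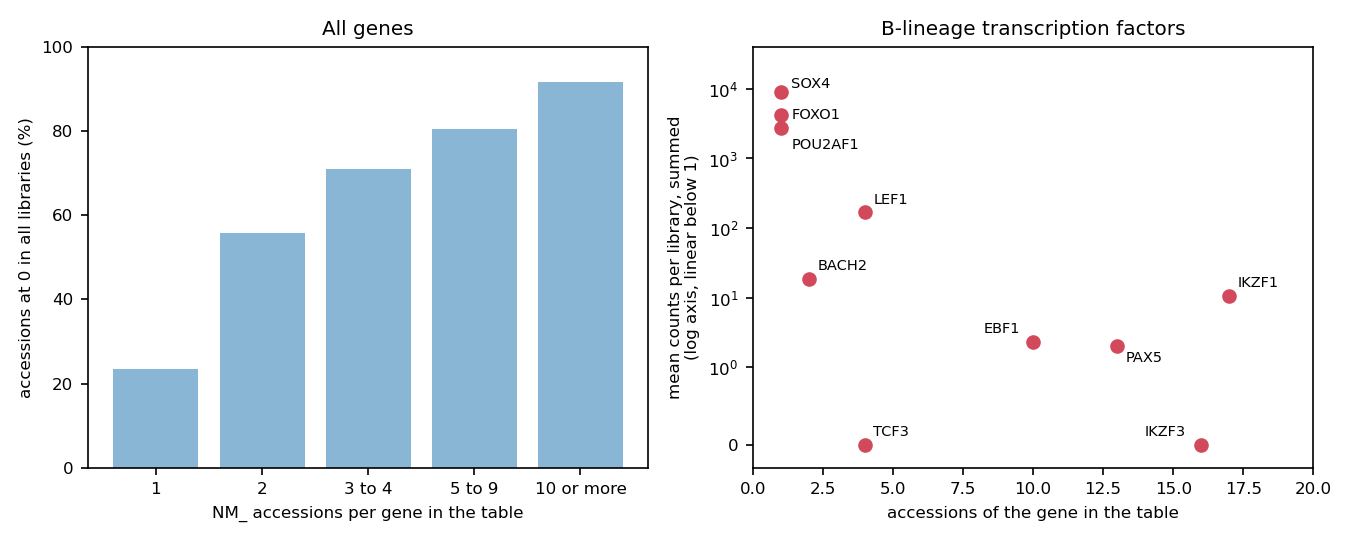
Left, percent of protein-coding RefSeq accessions at 0 in all 24 libraries (bars) by the number of such accessions per gene, from 23.4% to 91.8%. Right, each of the 10 genes as a point, with its number of accessions on the x axis and its mean counts per library, summed over accessions, on a log y axis that is linear below 1: the 3 genes with 1 accession lie at 2727 to 9094 counts and LEF1, the highest of the other 7, at 168.0.

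Normalized CPM, that is CPM after upper quartile scaling of the libraries, are used for levels below. Because transcript lengths were not used, levels are compared between conditions and not between genes. In bulk RNA, fewer cells of a type and less RNA per cell cannot be told apart. Calls are those of edgeR's quasi-likelihood test with the replicate number as a block. The limit was a Benjamini-Hochberg adjusted p of at most 0.05 over 10167 tested transcripts. How many of all tested transcripts moved the same way in every pair, or did not overlap between groups, is not given.

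The question of the first comparison was what dex did to these genes in control cells. POU2AF1 fell and 1 of the 2 tested LEF1 transcripts fell, SOX4 was lower in every pair without passing the test, and FOXO1 was not called. POU2AF1 (NM_006235) stood at 244.3, 225.5 and 239.6 CPM in shNS cells in ethanol and at 191.8, 162.8 and 172.0 CPM in dex. The groups did not overlap, and every dex library was below every ethanol library. The fold change was 1.35-fold lower (log2 fold change -0.43, SE 0.07, edgeR adjusted p = 0.0001408). LEF1 NM_016269 stood at 3.82, 2.67 and 2.89 CPM in ethanol and at 1.66, 2.06 and 1.62 CPM in dex, from 29 to 44 and 18 to 24 counts per library. The groups did not overlap, and the log2 fold change was -0.79 (SE 0.25, edgeR adjusted p = 0.04251). The call was lost with TMM scaling, in DESeq2, with no filter and without the replicate block (adjusted p = 0.05797, 0.1452, 0.05358 and 0.1009), and without replicate 1 or 3 (0.3068 and 0.3354). With all LEF1 accessions summed the log2 fold change was -0.16 (adjusted p = 0.5556). The other LEF1 transcript, NM_001166119, stood at 12.2, 11.9 and 10.8 CPM in ethanol and at 12.0, 10.5 and 10.9955 CPM in dex, and its log2 fold change was -0.06.

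SOX4 (NM_003107) stood at 802.7, 771.3 and 795.1 CPM in shNS cells in ethanol and at 674.5, 610.4 and 573.5 CPM in dex. The groups did not overlap, but the log2 fold change of -0.36 had an SE of 0.18 and an edgeR adjusted p of 0.2491. SOX4 passed the test here under 4 of the 12 other settings. The spread in that fit is estimated over all 24 libraries, and the shHP1γ libraries of replicate 1 held 1342 and 1291 CPM of SOX4 where the other shHP1γ libraries held 561.4 to 712.3 CPM. Without these 2 libraries, a setting chosen after seeing the data, the log2 fold change was -0.35 with an SE of 0.05 and an adjusted p of 4.766e-05. FOXO1 (NM_002015) stood at 348.0, 381.3 and 412.1 CPM in ethanol and at 369.4, 395.8 and 436.9 CPM in dex, a log2 fold change of 0.07 (95% interval -0.09 to 0.24, adjusted p = 0.6557). Its libraries overlapped between treatments, although each dex library was above the ethanol library of the same number.

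Of the 7 tested transcripts, 2 were called in shNS cells, both lower, where 9.95% of all tested transcripts were called, 4.49% higher and 5.46% lower. The median log2 fold change of the 7 was -0.36 against -0.03 over all tested transcripts. BACH2 ranged from 16 to 23 counts and the tested IKZF1 transcript (NM_001291845) from 3 to 9 counts in these 6 libraries, and neither was called. Their 95% intervals, -0.68 to 0.59 and -1.28 to 0.50 on the log2 scale, leave room for changes of the size seen in POU2AF1.

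**Figure D2:**
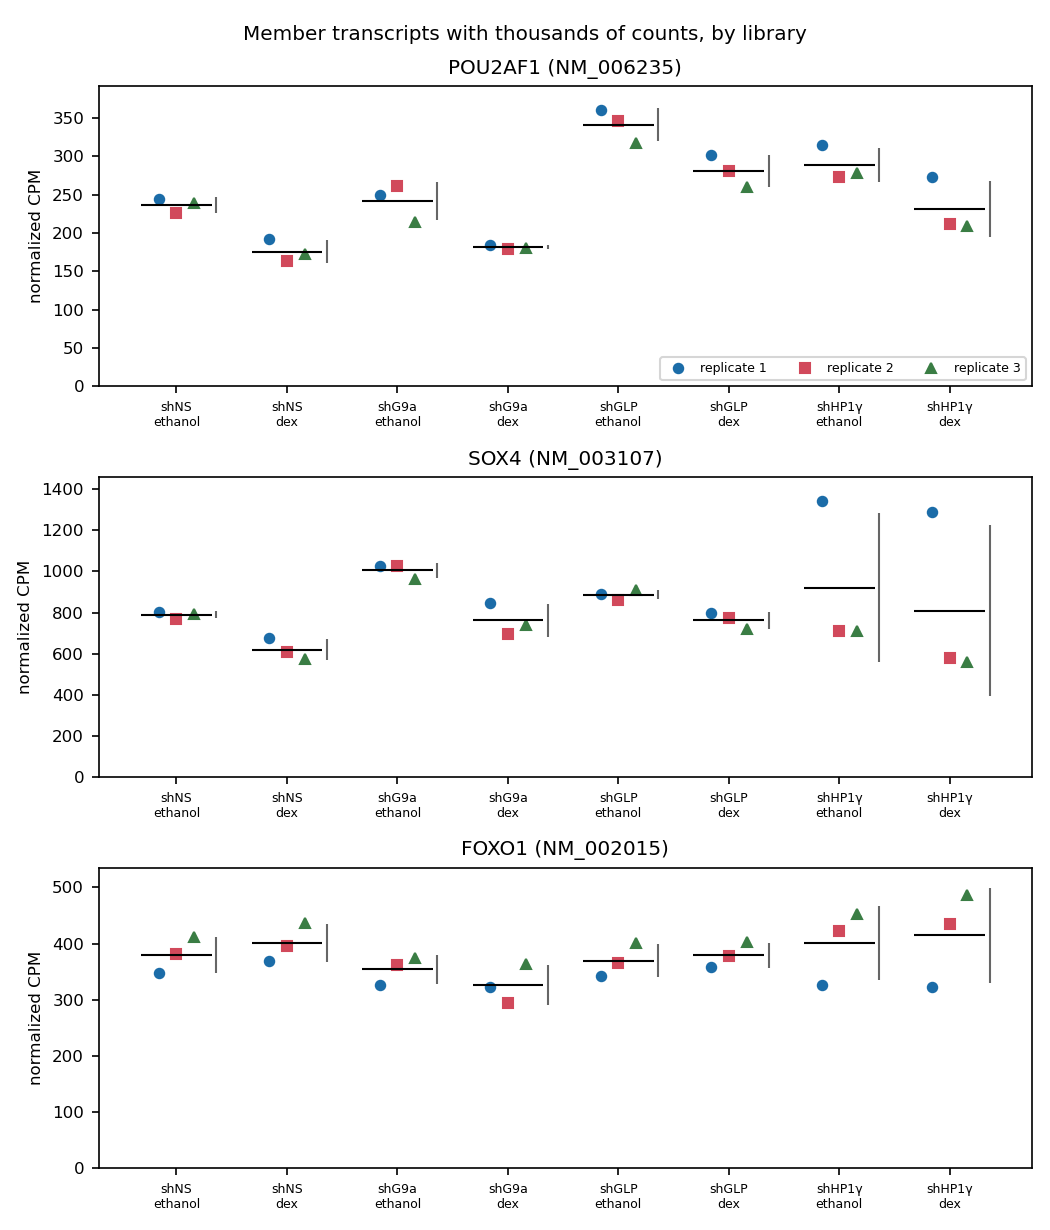
Normalized CPM of POU2AF1, SOX4 and FOXO1 in the 24 libraries (points, by replicate number), with the mean (horizontal line) and SD (vertical line) of the 3 replicates of each of the 8 conditions. POU2AF1 sits at 162.8 to 191.8 CPM in shNS dex and at 317.9 to 360.1 CPM in shGLP ethanol, and both shHP1γ libraries of replicate 1 stand apart for SOX4.

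The same question was asked in the depleted cells, and POU2AF1 was lower after dex in all of them. In shG9a cells it went from 249.7, 261.9 and 214.3 CPM to 184.8, 179.4 and 180.8 CPM, a log2 fold change of -0.41 (SE 0.07, edgeR adjusted p = 0.000509). In shGLP cells, where it started higher, it went from 360.1, 346.2 and 317.9 CPM to 301.9, 281.5 and 260.4 CPM, a log2 fold change of -0.28 (SE 0.07, edgeR adjusted p = 0.02204, 0.2441 without the replicate block). In shHP1γ cells it went from 314.1, 273.6 and 277.8 CPM to 273.3, 211.2 and 209.3 CPM, a log2 fold change of -0.32 (SE 0.07, edgeR adjusted p = 0.007008, 0.1270 without the block). Treatments did not overlap in any of the 4 cell populations, and dex was lower in 12 of 12 pairs of libraries with the same number. The call in shGLP cells was also lost with TMM scaling (adjusted p = 0.05006), with a mean of at least 5 CPM (0.06313) and without replicate 1, 2 or 3 (0.06618, 0.07844 and 0.4176), that in shHP1γ cells without replicate 3 (0.337), and that in shG9a cells with only the 2 groups fitted (0.09037). Without the shHP1γ libraries of replicate 1 the value in shHP1γ cells was -0.40 (adjusted p = 0.001196), and without the shG9a dex library of replicate 2 the value in shG9a cells was -0.42 (adjusted p = 0.00198).

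SOX4 was also lower in dex in 12 of 12 pairs. It went from 1027, 1026 and 963.4 CPM to 848.6, 696.4 and 740.5 CPM in shG9a cells and from 888.6, 863.6 and 909.1 CPM to 798.8, 771.8 and 719.2 CPM in shGLP cells. In shHP1γ cells it went from 1342, 712.3 and 711.6 CPM to 1291, 577.4 and 561.4 CPM, so that the treatments overlapped there and not in the other 3 populations. The log2 fold changes were -0.41, -0.22 and -0.20 in shG9a, shGLP and shHP1γ cells, and none was called (edgeR adjusted p = 0.1894, 0.6493 and 0.7005). Without the shHP1γ libraries of replicate 1 they were -0.40, -0.22 and -0.33, and each was called (adjusted p = 1.513e-05, 0.01262 and 0.003571).

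FOXO1 stood at 325.8, 361.6 and 374.3 CPM in ethanol and at 321.8, 293.4 and 363.3 CPM in dex in shG9a cells. In shGLP cells it stood at 342.6, 364.5 and 400.4 CPM and at 357.8, 378.1 and 402.1 CPM, and in shHP1γ cells at 326.8, 422.3 and 453.0 CPM and at 321.9, 435.0 and 486.3 CPM. The treatments overlapped in each population. Its log2 fold changes after dex were -0.12, 0.04 and 0.04, with 95% intervals from -0.28 to 0.05, -0.12 to 0.20 and -0.12 to 0.21, and none was called. Beyond POU2AF1, no tested transcript was called after dex in the depleted cells, which left 1 of 7 called in each, where 6.24%, 3.29% and 3.22% of all tested transcripts were called in shG9a, shGLP and shHP1γ cells. Of all tested transcripts, 3.26%, 1.95% and 2.12% were called higher and 2.98%, 1.34% and 1.09% lower. The medians of the 7 log2 fold changes were -0.27, -0.15 and -0.20, against 0.00, -0.01 and -0.01 over all tested transcripts. The shHP1γ cells had the lowest levels of LEF1 NM_016269 in dex, 1.51, 1.29 and 1.32 CPM, below all 3 ethanol libraries at 3.29, 1.69 and 2.14 CPM, with a log2 fold change of -0.77 that was not called (adjusted p = 0.1667).

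Whether the dex response itself differed between depleted and control cells was tested as a difference of log2 fold changes. None of the 7 transcripts was called in any of the 3 tests by edgeR, where 0.0885%, 0.118% and 0.0197% of all tested transcripts were called for shG9a, shGLP and shHP1γ (0.00984%, 0.0197% and 0% higher, 0.0787%, 0.0984% and 0.0197% lower). Without adjustment, 0, 1 and 0 of the 7 were at or below 0.05, and DESeq2 called 0. The single transcript was LEF1 NM_016269 in shGLP cells, with a difference of 0.79 and an edgeR adjusted p of 1. The medians of the 7 differences were 0.02, 0.15 and 0.03, and those over all tested transcripts 0.03, 0.02 and 0.02. For POU2AF1 the difference from shNS cells was 0.02 in shG9a (95% interval -0.19 to 0.23), 0.15 in shGLP (-0.06 to 0.36) and 0.11 in shHP1γ cells (-0.10 to 0.32). For FOXO1 it was -0.19 in shG9a cells (95% interval -0.42 to 0.04). The tests do not show that the responses were alike, since each of these POU2AF1 and FOXO1 intervals holds differences in either direction. The interval of LEF1 NM_016269 in shGLP cells ran from 0.03 to 1.55 before any adjustment.

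**Figure D3:**
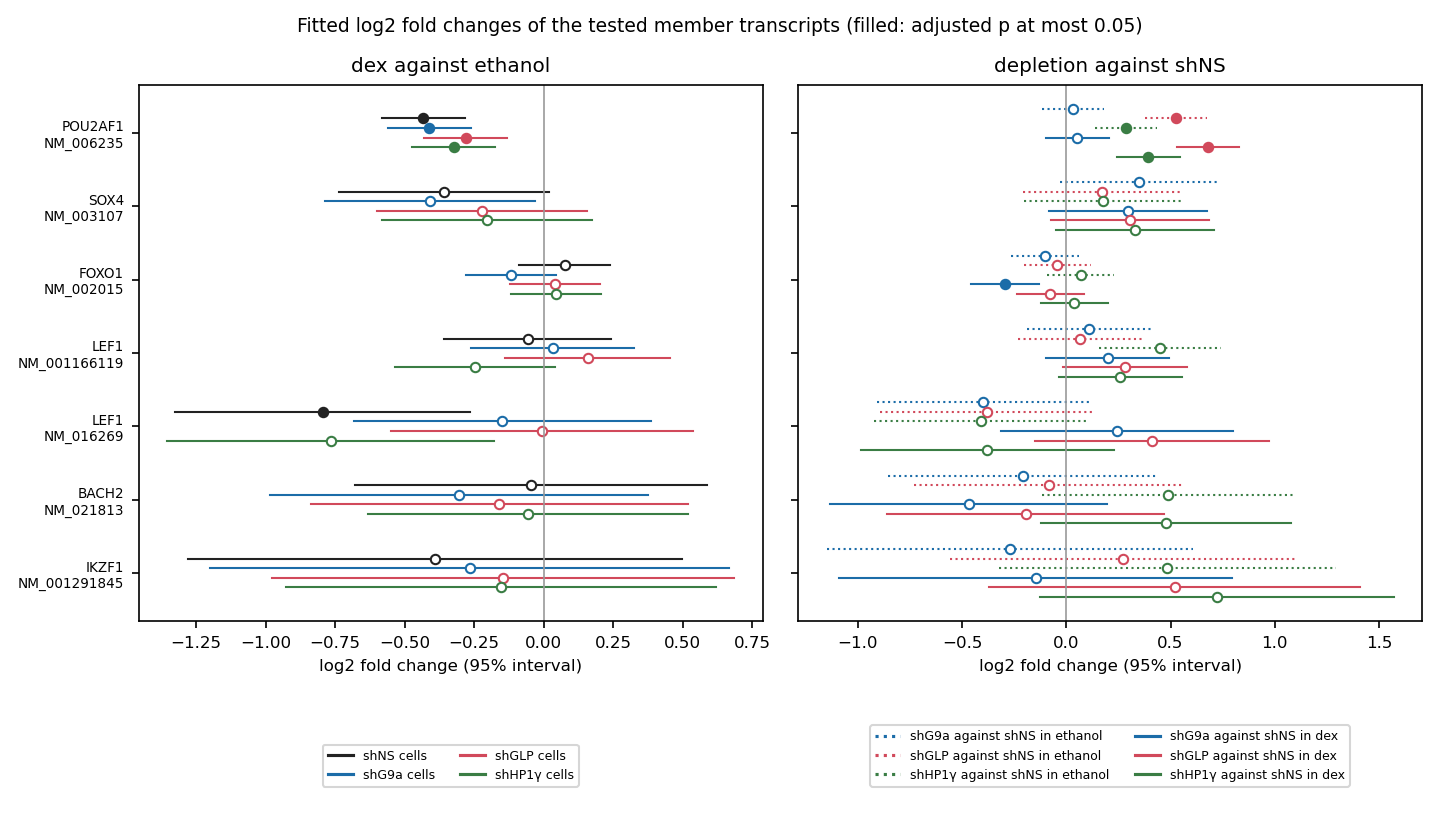
Fitted log2 fold change (points) with its 95% interval (lines) for the 7 tested transcripts, dex against ethanol on the left and depletion against shNS on the right, filled where the adjusted p is at most 0.05. POU2AF1 is filled at -0.43 to -0.28 for dex in all 4 populations and at 0.28 to 0.68 for shGLP and shHP1γ, while the intervals of BACH2 and IKZF1 are wide.

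The next comparisons asked what loss of each coregulator did to these genes, and they share the shNS libraries. With shGLP, POU2AF1 was higher in both treatments. In ethanol, 360.1, 346.2 and 317.9 CPM stood against 244.3, 225.5 and 239.6 CPM in shNS, 1.44-fold higher (log2 fold change 0.53, SE 0.07, edgeR adjusted p = 2.715e-05). In dex, 301.9, 281.5 and 260.4 CPM stood against 191.8, 162.8 and 172.0 CPM, 1.60-fold higher (0.68, SE 0.07, edgeR adjusted p = 8.719e-07). The groups did not overlap in either treatment, and the shGLP cells in dex stood above the control cells in ethanol. It was the only one of the 7 called with shGLP, where 3.61% of all tested transcripts were called in ethanol (1.93% higher, 1.68% lower) and 5.77% in dex (3.31% higher, 2.46% lower). The medians of the 7 were 0.07 in ethanol and 0.31 in dex, against 0.01 and 0.03 over all tested transcripts.

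Among markers of other cell types, the myeloid gene LYZ was higher in the shGLP cells, with 208 to 338 counts per library against 20 to 65 in shNS (log2 fold change 2.71 in ethanol and 3.22 in dex, edgeR adjusted p = 3.214e-06 and 5.937e-07). MPO had 7 to 40 counts in shGLP and 2 to 24 in shNS libraries and was not called (adjusted p = 0.06665 and 0.2328), and CD14 had 0 to 3 and 0 to 2 counts. Of the 6 myeloid markers, 3 had counts. Their summed level, mostly LYZ, was 20.4 to 34.0 CPM in the shGLP libraries and at most 11.7 CPM in all others, and CSF1R, ELANE and FCGR3A were at 0. Their part in the POU2AF1 result was not tested. Summed B-cell precursor markers were 101.2 to 125.0 CPM in shGLP and 93.3 to 108.4 CPM in shNS cells in ethanol. In dex they were 103.5 to 122.8 CPM in shGLP and 86.7 to 93.5 CPM in shNS cells, without overlap, and their part in the POU2AF1 result was not tested either. Mature B or plasma cell markers stayed at or below 4.09 CPM in every library. Of 7 T or NK cell markers, NKG7 had 95 to 232 counts per library and the others 0 to 3, with a sum of 8.75 to 16.8 CPM, and erythroid markers summed to at most 0.368 CPM.

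With shHP1γ, POU2AF1 was higher to a smaller extent. In ethanol, 314.1, 273.6 and 277.8 CPM stood against the shNS values above, 1.22-fold higher (log2 fold change 0.28, SE 0.07, edgeR adjusted p = 0.02469, 0.2211 without the replicate block). In dex, 273.3, 211.2 and 209.3 CPM gave a 1.31-fold higher level (0.39, SE 0.07, edgeR adjusted p = 0.001222). The groups did not overlap. Replicate 1 was the highest shHP1γ library in both treatments, and without its shHP1γ libraries the log2 fold changes were 0.27 (adjusted p = 0.02293) and 0.30 (adjusted p = 0.006521). With no filter the ethanol value was 0.20 (adjusted p = 0.3523), and its call was lost without replicate 1, 2 or 3 (0.1342, 0.05736 and 0.2149), as was that in dex without replicate 3 (0.05032). With shG9a, POU2AF1 differed by 0.03 in ethanol and 0.05 in dex (95% intervals -0.12 to 0.18 and -0.10 to 0.20), with overlapping groups. In the order of the 8 means, shGLP ethanol (341.4 CPM) was followed by shHP1γ ethanol (288.5), shGLP dex (281.3), shG9a ethanol (242.0), shNS ethanol (236.5), shHP1γ dex (231.3), shG9a dex (181.7) and shNS dex (175.6). Neighbours in this order overlapped except at 2 steps, below shGLP ethanol and below shHP1γ dex.

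SOX4 showed higher levels with shG9a and shGLP in 6 of 6 pairs each, with no overlap in either treatment. With shG9a it stood at 1027, 1026 and 963.4 CPM against 802.7, 771.3 and 795.1 CPM in ethanol (log2 fold change 0.35), and at 848.6, 696.4 and 740.5 CPM against 674.5, 610.4 and 573.5 CPM in dex (0.30). With shGLP the log2 fold changes were 0.17 in ethanol and 0.31 in dex. None of the 4 was called over all libraries (edgeR adjusted p = 0.3584, 0.3309, 0.7904 and 0.4226, SE 0.18). Without the shHP1γ libraries of replicate 1 the values were 0.35, 0.30, 0.17 and 0.30, with adjusted p = 0.0001349, 0.0004437, 0.07376 and 0.0004721. In shHP1γ cells the direction rested on replicate 1. Its ratio to shNS was 1.67 in ethanol and 1.91 in dex, and the ratios of replicates 2 and 3 were 0.923 and 0.895 in ethanol and 0.946 and 0.979 in dex. The log2 fold change was 0.17 in ethanol and 0.33 in dex with all libraries, and -0.11 and -0.086 without that replicate's shHP1γ libraries, with neither called.

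**Figure D4:**
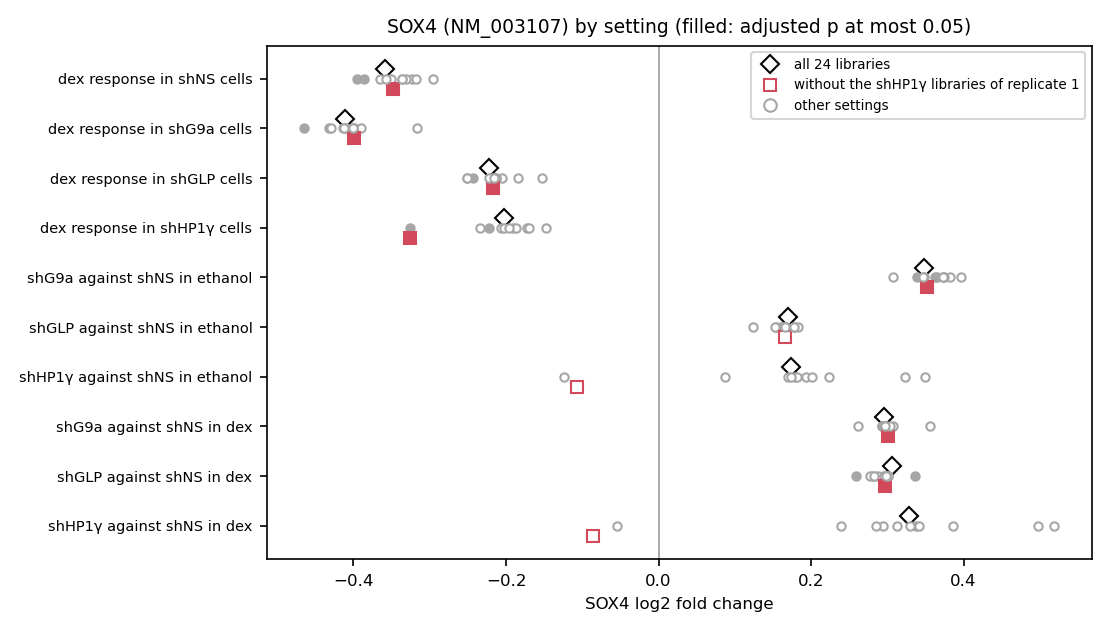
SOX4 log2 fold change in each comparison with all 24 libraries (black diamonds), without the shHP1γ libraries of replicate 1 (red squares) and under the other settings (grey circles), filled where the adjusted p is at most 0.05. Squares are filled in 7 of the 10 comparisons and diamonds in 0, and both shHP1γ comparisons with shNS change sign.

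FOXO1 was lower with shG9a in 6 of 6 pairs. In dex, 321.8, 293.4 and 363.3 CPM stood against 369.4, 395.8 and 436.9 CPM in shNS without overlap, 1.23-fold lower (log2 fold change -0.29, SE 0.08, edgeR adjusted p = 0.01581). The lowest of these values, 293.4 CPM, was in the shG9a dex library of replicate 2, and without that library the log2 fold change was -0.21 (adjusted p = 0.1108). The call was also lost without the replicate block (-0.30, adjusted p = 0.2347), with only the 2 groups fitted (0.09721) and without replicate 2 or 3 (0.2225 and 0.1632). In ethanol the shG9a value was -0.10 (95% interval -0.27 to 0.06) and the groups overlapped. With shGLP FOXO1 was also lower in 6 of 6 pairs, by less and with overlapping groups (log2 fold changes -0.043 in ethanol and -0.077 in dex, adjusted p = 0.9001 and 0.7118). With shHP1γ it was lower in 2 of 6 pairs (0.068 and 0.038), and all 8 group means overlapped their neighbours in order, from 414.4 CPM in shHP1γ dex to 326.2 CPM in shG9a dex.

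Of the 7 transcripts, edgeR called 0 with shG9a in ethanol, where 3.73% of all tested transcripts were called (1.59% higher, 2.13% lower), 0 of the 7 had an unadjusted p of at most 0.05, and DESeq2 called 0. In dex, 1 of 7 was called with shG9a, where 8.8% were called, 4.38% higher and 4.43% lower. With shHP1γ 1 of 7 was called in each treatment, where 2.91% were called in ethanol (1.62% higher, 1.29% lower) and 4.09% in dex (2.55% higher, 1.54% lower). The medians of the 7 were -0.10 and 0.05 with shG9a and 0.28 and 0.33 with shHP1γ, in ethanol and dex. Over all tested transcripts they were -0.02, 0.00, 0.02 and 0.03 in the same order. With shHP1γ in dex the median was the SOX4 value, which was -0.086 without the shHP1γ libraries of replicate 1. The 7 also include the IKZF1 transcript, which passed the filter only through 1 shHP1γ and 1 shGLP library. Medians without these libraries are not given.

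Among the 4 transcripts with few counts, several were higher or lower in every pair without passing the test. The share of all tested transcripts that did so is not given, so these cases are not read as a result about the members. LEF1 NM_001166119 was above shNS in 6 of 6 shHP1γ pairs without overlap in either treatment. In ethanol it stood at 18.4, 14.7 and 14.5 CPM against 12.2, 11.9 and 10.8 CPM, a log2 fold change of 0.45 (SE 0.14, edgeR adjusted p = 0.08116), and without the shHP1γ libraries of replicate 1 it was 0.34 (adjusted p = 0.2318). It was also above shNS in 6 of 6 shG9a pairs, without overlap in dex (log2 fold changes 0.11 and 0.20, adjusted p = 0.8029 and 0.4137). The other LEF1 transcript, NM_016269, went the opposite way in shHP1γ cells, below shNS in 6 of 6 pairs and without overlap in dex (-0.41 and -0.38, adjusted p = 0.4785 and 0.5929). The IKZF1 transcript NM_001291845 had 8 to 11 counts in the 6 shHP1γ libraries and 3 to 9 in the 6 shNS libraries, with log2 fold changes of 0.48 in ethanol and 0.72 in dex (adjusted p = 0.6534 and 0.4327). It was above 1 CPM, and so passed the filter, only through the shHP1γ ethanol library of replicate 1 and the shGLP dex library of replicate 3. Its higher counts in shHP1γ cells are therefore not independent of the filter. BACH2 had 15 to 33 counts in the shHP1γ libraries and 12 to 23 in the other 18. Against shNS it was higher in 5 of 6 shHP1γ pairs and was not called. Its log2 fold changes there were 0.49 in ethanol and 0.48 in dex (edgeR adjusted p = 0.4642 and 0.4496).

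**Figure D5:**
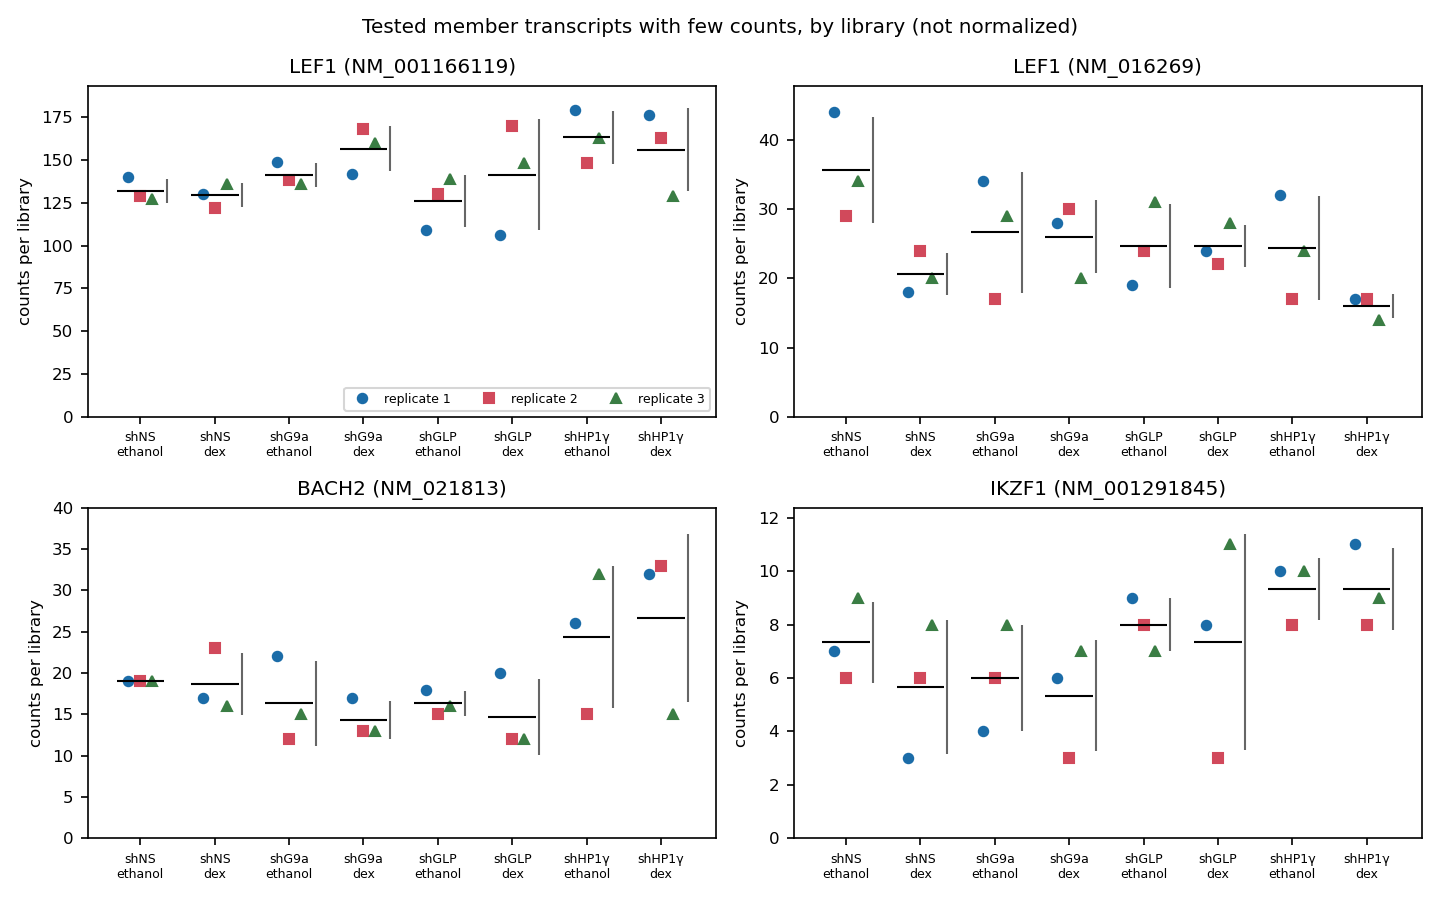
Counts per library, not normalized, of the 2 tested LEF1 transcripts, BACH2 and the tested IKZF1 transcript in the 24 libraries (points, by replicate number), with mean (horizontal line) and SD (vertical line) by condition. LEF1 NM_016269 has 18 to 24 counts in shNS dex against 29 to 44 in shNS ethanol, and IKZF1 has at most 11 counts in any library.

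For context, 30 other transcription factors of the B lineage were listed, of which 22 transcripts of 16 genes were tested. After dex in shNS cells 2 rose and 4 fell, with a median of -0.22. Of all tested transcripts, 4.49% were called higher and 5.46% lower there. For the other comparisons of this list the shares over all tested transcripts are those given above. ID3, an inhibitor of E proteins such as TCF3, fell from 299.4 ± 2.92 to 118.3 ± 6.90 CPM (log2 fold change -1.34, SE 0.07, edgeR adjusted p = 1.589e-12), while the related ID2 rose from 37.7 ± 0.35 to 57.1 ± 6.99 CPM (0.60, edgeR adjusted p = 0.002468; SD, n = 3). An IRF4 transcript rose (1.86, from 3 to 4 counts per library to 12 to 18) and a RUNX1 transcript fell (-1.36, from 18 to 25 counts to 5 to 11). ID3 fell after dex in shG9a, shGLP and shHP1γ cells as well (log2 fold changes -0.64, -0.74 and -0.94), and 0 rose and 2 fell, 1 rose and 1 fell, and 0 rose and 1 fell of the 22 in these cells. Against shNS in dex, shGLP cells had 4 higher and 0 lower, where 3.31% of all tested transcripts were called higher and 2.46% lower. IRF8, a factor shared by B and myeloid cells, was higher (1.20, from 9.66 ± 1.24 to 22.1 ± 0.83 CPM). The others were IKZF2 (1.15, 6 to 12 counts in shNS, edgeR adjusted p = 0.04991), ID3 (0.93) and ETV6 (0.29). With shG9a in dex ID3 was higher (1.13) and ID2 lower (-0.65), and with shHP1γ ID3 was higher (0.73). In ethanol ID3 was the only one called with shG9a (0.43) and with shHP1γ (0.33), and ID3 (0.33) and IRF8 (1.27) were called with shGLP.

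Of 18 target genes of these factors, 11 transcripts of 9 genes were tested. The shares of all tested transcripts called in each comparison are again those given above. CD72, a surface receptor that restrains B-cell receptor signaling, rose after dex in all 4 populations, with log2 fold changes of 0.87, 0.80, 0.50 and 0.72 in shNS, shG9a, shGLP and shHP1γ cells, and it was the only target called after dex. RAG1, which cuts DNA for V(D)J recombination and is a known FOXO1 target, stood at 1643 ± 76.2 CPM in shNS ethanol (SD, n = 3). It was higher with shG9a (0.58 in ethanol, 0.42 in dex) and with shGLP (0.56 and 0.68), and a part of FOXO1 in this was not tested. VPREB3 was higher with shGLP (0.54 and 0.68), CD72 was lower with shG9a (-0.63 and -0.70) and with shHP1γ in dex (-0.53), and RAG2 was lower with shG9a in dex (-1.05). The 3 tested precursor marker genes had no called transcript in any comparison.

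Transcripts with the most similar pattern were found by the correlation of log2 normalized CPM over the 24 libraries after the mean of each replicate number was removed. These libraries share treatments and shNS controls, so the values are a description. They include both shHP1γ libraries of replicate 1, which stand apart and where SOX4 was highest, and values without them are not given. For POU2AF1 the most similar were TMSB4Y (r = 0.90) and PDIA3 (0.90). For SOX4 they were ST8SIA4 (0.91) and APBB1IP (0.89), and for FOXO1 TNFRSF1B (0.87) and ERCC2 (0.86). The low-count transcripts had lower values, 0.78 for LEF1 NM_001166119 with ZC3H4 and with LINC01783, 0.77 for BACH2 with LINC00861, and 0.79 for IKZF1 with PPM1F-AS1.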

How the data were processed

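RNA was sequenced from 24 Nalm6 libraries, 3 replicates of each of 8 conditions, grouped by their labels. The authors trimmed paired-end reads, aligned them by HISAT2 to GRCh37 (hg19) and deposited whole-number counts per RefSeq accession made with GenomicAlignments, in a table named for CPM whose columns sum to different totals. For tool versions, strand handling and RefSeq release, nothing is given in the sources used here. The deposited fold changes and adjusted p-values of the authors' own comparisons were not used.

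The tests used edgeR 4.0.16 under R 4.3.3 (quasi-likelihood, upper quartile scaling, more than 1 CPM in at least 2 libraries, 8 groups and the replicate number as a block over all libraries, two-sided, Benjamini-Hochberg over 10167 transcripts). The script was tested on simulated data. The labels place replicates on different days but do not say that a number marks 1 day shared by all conditions. No library duplicated another (chi-squared per degree of freedom at least 3.36). The authors removed unwanted variation before testing, and the replicate block stands in its place here. Alternatives were TMM scaling, DESeq2 1.42.0, no filter, a mean of at least 5 CPM, no block, only the groups compared, counts summed per gene, and each replicate left out. The named genes are every member accession, up to 4 called transcripts of each list per comparison by size of change, and the 2 most similar transcripts of each tested member. The counts of 1 precursor marker are not reported here. The members and lists were chosen with earlier results of these data known. Intervals cover 95%, and limits on a count of 0 cover counting error only.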

Additional observations from a re-analysis of the deposited data

Results flagged for a closer look

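For LEF1 NM_001166119, every dex library of shGLP cells was above the ethanol library of the same number and every dex library of shHP1γ cells was below it. The log2 fold changes were 0.16 and -0.25, a difference of 0.40 that was not tested. For FOXO1, every shG9a pair fell and every shGLP pair rose after dex, most of them by little. The ratios of dex to ethanol were 0.988, 0.812 and 0.971 in shG9a cells and 1.044, 1.037 and 1.004 in shGLP cells. The lowest, 0.812, was that of replicate 2, whose shG9a dex library stands apart. Treatments overlapped in both populations, and neither change was called. The log2 fold changes were -0.12 and 0.04, a difference of -0.16 that was not tested.

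ID3, an inhibitor of E proteins and not one of the 10 genes, had a dex response that differed from that of shNS cells in a test of the difference itself. It was weaker by 0.70 on the log2 scale in shG9a cells (SE 0.09, edgeR adjusted p = 0.001845) and by 0.60 in shGLP cells (SE 0.09, edgeR adjusted p = 0.006023). The level after dex was 118.3 ± 6.90 CPM in shNS, 258.3 ± 26.4 CPM in shG9a and 226.3 ± 15.5 CPM in shGLP cells (SD, n = 3). In dex, shG9a libraries ran from 243.0 to 288.7 CPM and shNS libraries from 112.3 to 125.9 CPM. The ID3 test without the shG9a dex library of replicate 2, which stands apart, is not given.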

How the results depend on the processing

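The main values are 2, 1, 1 and 1 genes called after dex (shNS, shG9a, shGLP, shHP1γ), 0, 1 and 1 with shG9a, shGLP and shHP1γ in ethanol, 1, 1 and 1 in dex, and 0 for each difference of responses. Without the replicate block the counts became 1 (dex in shNS), 0 (dex in shGLP and in shHP1γ, shHP1γ in ethanol, shG9a in dex) and stayed the same elsewhere, so the calls of POU2AF1 in 3 comparisons, of FOXO1 and of LEF1 depend on the block. Deviations from the group means of libraries with the same number correlated with r from -0.002 to 0.637 (median 0.20), above 0.1 in 68 of 84 pairs, and 23 of 24 libraries correlated best with their own number, the exception being shG9a dex replicate 2. This is a hint from the data and not the design that numbers are shared. With TMM the counts were 1 for dex in shNS and 0 in shGLP, with DESeq2 1 in shNS, with a mean of at least 5 CPM 1 in shNS and 0 in shGLP, and with accessions summed 1 in shNS. With no filter they were 2 (dex in shG9a, shG9a and shGLP in dex), 1 (shG9a in ethanol) and 0 (shHP1γ in ethanol). With only the groups compared they were 0 (dex in shG9a, shG9a in dex), 2 (dex in shGLP and shHP1γ, shGLP in both treatments), 1 (shG9a in ethanol) and 3 (dex in shNS). Every call gained under these settings or with libraries left out was of SOX4. The shares of all tested transcripts called under each of these settings are not given. The counts therefore do not show whether the members changed more than other transcripts did.

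With single replicates or libraries left out, the counts ranged from 1 to 3 (dex in shNS), 1 to 2 (dex in shG9a), 0 to 2 (dex in shGLP and shHP1γ), 0 to 1 (shG9a, shHP1γ in ethanol), 1 to 1 (shGLP in ethanol), 0 to 2 (shG9a in dex), 1 to 2 (shGLP in dex) and 0 to 1 (shHP1γ in dex). Leaving out both shHP1γ libraries of replicate 1, or the shG9a dex library of replicate 2, was chosen after seeing the data. The first gave 3 genes for dex in shNS, 2 for dex in each depleted population, 1 for shG9a in ethanol, and 2 for shG9a and shGLP in dex. The second gave 0 for shG9a in dex, where the call of FOXO1 was lost. For libraries left out, too, the shares of all tested transcripts called are not given. SOX4 changed sign for shHP1γ against shNS, to -0.12 and -0.11 in ethanol and -0.055 and -0.086 in dex, without replicate 1 or its shHP1γ libraries. With replicates left out these values reached 0.35 and 0.52, and the difference of its dex responses in shG9a and shNS cells ran from -0.13 to 0.049. Except where the libraries left out show it, the cause was not tested. POU2AF1 kept its direction under all 12 settings in each of its called comparisons, and the call with shGLP held under all 12 in both treatments, as did that of dex in shNS cells.

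Depth limits IKZF1, BACH2 and LEF1 NM_016269, and the counts of PAX5, EBF1, TCF3, IKZF1 and IKZF3 cannot be read as levels. Those of LEF1 and BACH2, also listed under several accessions, need not reflect the level of the gene. Of 68 comparisons of transcripts other than SOX4 that were not called, 21 changed sign under some setting, with main log2 fold changes of at most 0.27, and 0 were called under any. Each target was depleted with 1 shRNA vector, and 3 replicates a group were available.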

Other observations

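Among the 7 tested transcripts, correlations of log2 normalized CPM over the 24 libraries, after the mean of each replicate number was removed, ran from -0.53 to 0.56 with a median of 0.24 over 21 pairs. The pair of SOX4 and FOXO1 had the lowest value (-0.53) and POU2AF1 and IKZF1 the highest (0.56). The IKZF1 transcript had 3 to 11 counts per library and passed the filter only through 1 shHP1γ and 1 shGLP library. POU2AF1 was higher in both of those populations, so their correlation is not independent of the filter. SOX4 and POU2AF1, both lower after dex in 12 of 12 pairs, had 0.52. The 2 LEF1 transcripts had 0.06. These libraries share treatments and the 2 shHP1γ libraries that stand apart.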
